A study of Mus musculus with 6 samples.

Results

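The genes described here are the mouse zinc finger genes whose symbol is Zfp followed by digits. They were taken from a table of 31265 genes measured in embryoid bodies sorted by nuclear redox state. The table holds 368 such genes, leaving out Zfp42 (Rex1) and Zfp352, and 269 of them reached a mean of at least 1 FPKM (fragments per kilobase of transcript, made relative to library size) over the 6 libraries. These 269 were kept and the other 99 were below that level. They were chosen by this mean level and not by the difference between groups, so levels are given as a description, with no test. Nearest above the limit were Zfp28 at 1.00, Zfp65 at 1.01 and Zfp672 at 1.02 FPKM, and nearest below it were Zfp503 at 0.998, Zfp945 at 0.995 and Zfp612 at 0.987 FPKM. Of the 269, 9 reached 1 FPKM only in the mean of the reduced libraries and 10 only in that of the oxidized libraries, so these genes had to differ for the limit to fall between their group means. Of them 8 had an unadjusted p under 0.05 and 1, Zfp936, was called.

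The cells were wild-type E14Tg2a mouse embryonic stem cells with nuclear Grx1-roGFP2, a fluorescent sensor whose excitation follows the redox state of glutathione. All cells had been kept in serum with LIF and the 2i inhibitors and then grew as hanging-drop embryoid bodies in the same medium without LIF and 2i. At day 5 the bodies were dissociated, cells that took up propidium iodide were gated out, and the 10% most oxidized and 10% most reduced live cells were sorted from each of 3 populations, A, B and C. This gave 3 oxidized and 3 reduced libraries of poly(A) RNA, whose values are given below in the order A, B, C, and the question is which genes differ between cells at the opposite ends of the redox range. Nothing in the labels tells whether the populations were separate clones, cultures or days, so the p-values measure the spread between these libraries, which may in part be technical. In bulk RNA of sorted cells, fewer cells of a type and less RNA per cell cannot be told apart.

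Most Zfp proteins bind DNA through tandem zinc fingers of the Cys2-His2 type, in which each finger reads a few bases and a short conserved linker joins it to the next. Many also carry a KRAB domain, which recruits the co-repressor Trim28 and through it the histone methyltransferase Setdb1. In embryonic stem cells this machinery is known for silencing retroelements and for keeping the methylation of imprinted loci. The name Zfp also covers proteins with other zinc-binding folds and other jobs, such as Zfp36, which binds AU-rich elements in mRNAs. KRAB zinc finger genes multiplied by tandem duplication, so neighbours on a chromosome often have near-identical sequence.

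The linker joining successive fingers can be read in the coding sequence, and 3 stretches from genes described below are shown because the repeat is what the family shares. Each runs from one linker to the next, taken from the GENCODE vM21 transcript of the gene, with the linkers in capitals.
Zfp936: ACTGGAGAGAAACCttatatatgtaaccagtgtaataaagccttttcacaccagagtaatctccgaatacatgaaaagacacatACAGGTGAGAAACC
Zfp985: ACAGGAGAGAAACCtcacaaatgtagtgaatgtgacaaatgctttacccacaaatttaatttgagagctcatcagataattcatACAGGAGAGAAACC
Zfp9: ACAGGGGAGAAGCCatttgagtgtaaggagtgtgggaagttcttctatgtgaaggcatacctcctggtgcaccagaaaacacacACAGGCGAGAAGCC
The pattern searched on the coding strand, ACNGGNGA followed directly by NAANCC, where N is any base, occurred at least once in 197 of the 266 Zfp genes with a coding sequence and at least 3 times in 150, or 56.4%. Among all 10667 tested genes with a coding sequence, 2.02% held at least 3. Successive linkers lay exactly 84 bases apart in 615 of 924 pairs (66.6%), the spacing of the 3 stretches above, and the highest number in 1 gene was 18. The authors' table places 116 of the 269 genes in the KEGG orthology group of KRAB zinc finger proteins, and 98 of these (84.5%) held at least 3 linkers. That label is not complete, since Zfp57, whose protein is known to have a KRAB domain, does not carry it.

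A sequence bound by Zfp143 was found in a larger share of Zfp promoters than of other promoters of the same length. RefSeq (GRCm38.p6) gives a promoter, 250 bases before the start site and 50 after it, for 218 of the 269 genes. The pattern ACTACA, any 2 bases and TCCC, on either strand, is known as a binding sequence of Zfp143, itself a Zfp gene that activates promoters. It was found in 31 of the 218 (14.2%), against 4.93% of the tested genes with a promoter and 2.08% of all 27025. Windows around it are shown for 4 genes to let the shared letters be seen, in the direction of the gene, with the reverse complement of the pattern in capitals.
Zfp1: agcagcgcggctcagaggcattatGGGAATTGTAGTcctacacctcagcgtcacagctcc
Zfp334: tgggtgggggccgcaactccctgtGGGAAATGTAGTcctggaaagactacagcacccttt
Zfp146: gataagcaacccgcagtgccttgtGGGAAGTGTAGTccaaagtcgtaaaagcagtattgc
Zfp74: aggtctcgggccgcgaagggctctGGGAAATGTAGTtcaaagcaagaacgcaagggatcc
These lie at chr8:111643393-111643452, chr2:165388342-165388401, chr7:30169836-30169895 and chr7:29954081-29954140. The YY1 pattern AANATGGC was in 16.97% of Zfp promoters against 10.8% of tested promoters, the ETS pattern CCGGAAG in 22.9% against 21.6% and the NRF1 pattern, GCGC and any base before TGCGC, in 10.1% against 12.5%. The GC-box letters GGGCGG were in 51.4% against 71.8% and TATAAA in 8.26% against 8.41%. A match is a run of letters and not a measured binding site. The median log2 difference between oxidized and reduced libraries was 0.09 for the 31 genes with the Zfp143 pattern and 0.01 for the other Zfp genes with a promoter. Zfp143 stood at 7.90, 11.4 and 8.52 FPKM in the oxidized libraries and at 9.36, 10.1 and 8.04 in reduced A, B and C. The groups overlapped, and its log2 difference was 0.00 with an SE of 0.18.

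The Zfp genes were mostly expressed at low levels, and their summed level overlapped between the sorted fractions. Their median of mean FPKM was 3.27, against 6.75 over the 12191 genes tested, 188 of them lay under 5 FPKM and 33 at 10 FPKM or more. The highest was Zfp706, a gene known from the exit of embryonic stem cells from self-renewal, at 74.3, 74.5 and 71.2 FPKM in the oxidized and 72.1, 90.6 and 74.4 in the reduced libraries. Next were Zfp428, Zfp207, Zfp330, Zfp830, Zfp1, Zfp358, Zfp511, Zfp771 and Zfp106. The FPKM of all 269 summed to 1360, 1503 and 1408 in oxidized A, B and C and to 1388, 1432 and 1366 in the reduced libraries, with the highest and the lowest value both among oxidized libraries.

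Differences were tested with limma on log2(FPKM + 1), fitted over all 12191 genes at or above the 1 FPKM limit, and a gene was called at a Benjamini-Hochberg adjusted p under 0.05. The test called 3 Zfp genes (1.12%), of which 1 was higher and 2 were lower in the oxidized libraries, where 0.796% of all tested genes were called. In the higher direction 0.517% of all genes were called and in the lower direction 0.279%, so the share of Zfp genes is close to the background. With the population as a block no Zfp gene was called and 4 genes in all (0.0328%). Without oxidized C 16 Zfp genes (5.95%) were called, 8 in each direction, against 9.72% of all genes. Leaving out oxidized A, oxidized B, reduced A or reduced B left none, and leaving out reduced C left 1. At an unadjusted p under 0.05, 34 Zfp genes were higher (12.6%, against 13.5% of all genes) and 19 lower (7.06%, against 5.93%). The oxidized and reduced values did not overlap in 39 genes that were higher (14.5%, against 16.2% of all) and 29 that were lower (10.8%, against 8.81%). The authors' deposited table gives a q-value under 0.05 for 17 Zfp genes (6.32%) and for 5.51% of all tested genes.

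The gene with the smallest p was Zfp346, which encodes a protein that binds double-stranded RNA. It stood at 1.48, 1.21 and 1.19 FPKM in the oxidized libraries and at 6.58, 5.78 and 4.85 FPKM in reduced A, B and C. All 3 oxidized libraries lay far below all 3 reduced ones, with 1.29 ± 0.158 against 5.74 ± 0.862 FPKM (SD, n = 3). The log2 difference, oxidized minus reduced, was -1.55 (SE 0.17) with an adjusted p of 0.0136 in limma. It was -1.61, -1.61 and -1.42 within populations A, B and C. With the population as a block the adjusted p was 0.0540, and over all alternatives it ranged from 0.00255 to 0.131. The call was lost without oxidized A (0.0619), oxidized B (0.0816), reduced A (0.103) or reduced B (0.112). Zfp346 (ENSMUSG00000021481) lies at chr13:55105311-55134825 on the plus strand (mm10), and none of its transcript's 50-base stretches occurs in another gene. The authors' deposited table gives it a fold of 0.225 and a log2 fold of -2.15.

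Zfp362 was the only Zfp gene called higher in oxidized cells in this fit. Its values were 9.22, 14.1 and 7.25 FPKM in oxidized cells and 2.45, 2.53 and 3.86 FPKM in the reduced libraries. The groups were well apart, and population C showed the smallest step, with a log2 difference of 0.76 against 1.57 in A and 2.09 in B. The log2 difference over all libraries was 1.47 (SE 0.25, adjusted p 0.0400). With the population as a block the adjusted p was 0.0902, within a range of 0.00402 to 0.207 over the alternatives. It was 0.133 without oxidized B, 0.132 without oxidized A, 0.205 without reduced A or without reduced B and 0.0510 without reduced C. Zfp362 (ENSMUSG00000028799) lies at chr4:128773088-128806045 on the minus strand, far from the distal cluster described below, and its coding sequence has no match to the linker pattern.

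Zfp936, a KRAB gene with 8 linkers, was the other gene called lower. It stood at 0.865, 0.447 and 0.286 FPKM in the oxidized libraries, against 2.53, 3.29 and 1.86 FPKM in reduced cells. The log2 difference was -1.21 (SE 0.22, adjusted p 0.0491), and it was -0.92, -1.57 and -1.15 in A, B and C. It passed the 1 FPKM limit through the reduced libraries alone. The adjusted p was 0.0753 with the population as a block and ranged from 0.0186 to 0.225 over the alternatives. It was 0.109, 0.165, 0.206, 0.214 and 0.0550 without oxidized A, oxidized B, reduced A, reduced B and reduced C. The gene (ENSMUSG00000064194) lies at chr7:43114229-43192109, and 15.6% of its transcript's 50-base stretches also occur in other genes, so part of its level is uncertain.

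The 9 genes that followed by p had groups that did not overlap and did not pass the limma test. They were picked by p, which favours groups that lie apart, so that separation is no independent support. Over all tested genes 16.2% lay apart in the higher and 8.81% in the lower direction. The authors' deposited q-value was under 0.05 for Zfp882, Zfp978, Zfp985, Zfp825, Zfp9, Zfp979 and Zfp668, but not for Zfp972 and Zfp239. Of the 12 genes with the smallest p, 5 averaged 1 FPKM or more in 1 group only, so they had to differ to be kept. These were Zfp936, Zfp985 and Zfp972 in the reduced and Zfp882 and Zfp9 in the oxidized libraries, and their values are no independent support. Zfp882 was at 2.23, 2.79 and 2.85 FPKM in the oxidized and 0.926, 1.40 and 0.399 FPKM in the reduced libraries (log2 difference 0.95, adjusted p 0.0905). The KRAB gene Zfp9, whose finger is shown above, was at 1.39, 1.61 and 1.87 against 0.323, 0.495 and 0.889 FPKM (0.75, adjusted p 0.109). Zfp239 was at 5.56, 5.52 and 5.95 against 3.32, 4.04 and 2.85 FPKM (0.61, adjusted p 0.117). In these 3 genes every oxidized library lay above every reduced one, and the step was largest in population C for Zfp882 and Zfp239. Zfp668 was at 3.08, 4.27 and 2.64 against 1.35, 1.24 and 1.98 FPKM, a log2 difference of 0.77 that was smallest in C (0.29).

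Among those lower in oxidized cells, Zfp825, a KRAB gene of chromosome 13, was at 7.54, 4.63 and 7.02 FPKM against 10.1, 14.9 and 12.5 FPKM. Its log2 difference was -0.87 (adjusted p 0.104), and 29.5% of its 50-base stretches occur in other genes. Zfp972 of chromosome 2 had 0.556 FPKM in oxidized A, 0.725 in oxidized B and is listed at 0 in oxidized C, against 2.02, 1.69 and 1.17 FPKM in the reduced libraries. Other genes share 55.7% of its 50-base stretches. The remaining 3 of the 9, Zfp978, Zfp985 and Zfp979, are neighbours on distal chromosome 4. Of these 12 genes, 5 were higher and 7 lower in oxidized cells.

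**Figure D1:**
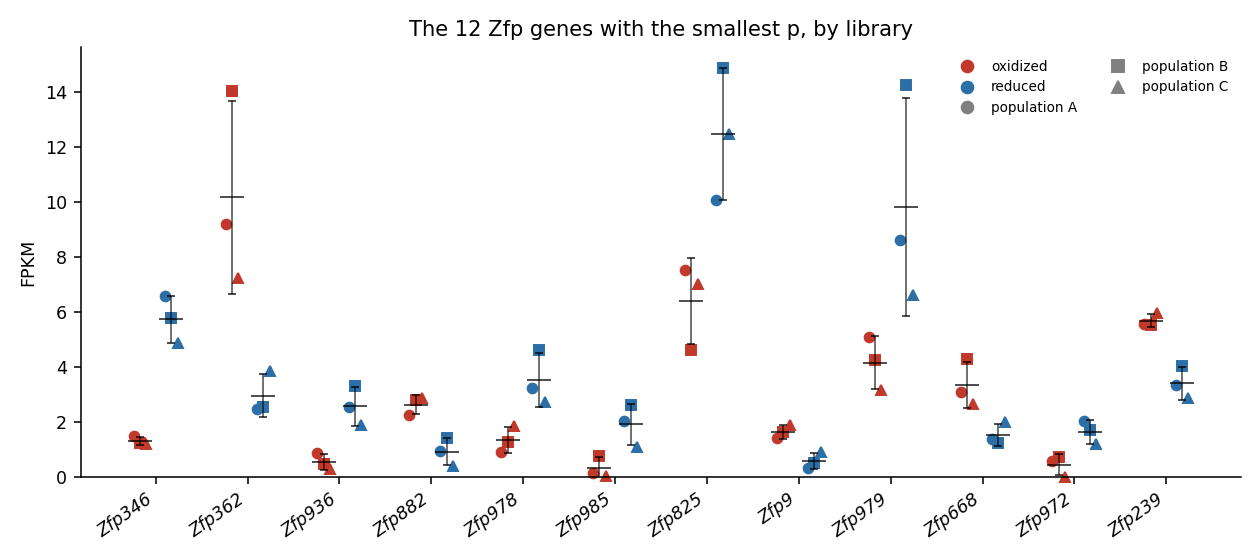
FPKM (vertical axis) in each library of the 12 Zfp genes with the smallest p, ordered by p from the left, in oxidized (red) and reduced (blue) cells of populations A (circles), B (squares) and C (triangles), with bars for the mean ± SD of 3 libraries. In all 12 genes the red and blue points do not overlap, which choosing genes by p favours, and only Zfp346, Zfp362 and Zfp936 passed the test.

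Some larger differences without a call rested on part of the populations. Zfp414 was at 20.8, 20.8 and 10.5 FPKM in the oxidized libraries, against 8.67, 5.19 and 8.86 FPKM in reduced cells. Oxidized A and B stood high and oxidized C only just above the reduced libraries, and the log2 difference of 1.07 had an adjusted p of 0.120. Of its transcript, 30.4% overlaps the exons of Gm20507. Zfp422 was at 2.14, 17.4 and 16.3 FPKM against 8.68, 1.28 and 8.59 FPKM, lower in oxidized than in reduced cells of A and higher in B and C, with a log2 difference of 0.75 and an SE of 0.75. Of the other genes at 5 FPKM or more with a large difference, Zfp395 (0.62) and Zfp580 (0.57) were higher in oxidized cells and Zfp710 was lower (-0.46), with adjusted p-values of 0.157 or higher. Zfp1, whose promoter is shown above, was at 17.6, 17.7 and 17.3 FPKM against 23.3, 24.9 and 23.6 FPKM. This is a log2 difference of -0.43 (adjusted p 0.154) with little spread within either group.

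Genes that silence imprinted loci and retroelements were measured in 6 of 7 cases and none was called, with a median log2 difference of -0.36 where the median of all tested genes was 0.08. Zfp57, which keeps methylation at imprinting control regions, was at 1.05, 1.53 and 7.80 FPKM in the oxidized libraries, against 5.13, 5.91 and 7.07 FPKM in reduced cells. Oxidized A and B were below all the rest, while oxidized C was the highest of the 6. Its log2 difference was -0.97 (adjusted p 0.301), -1.62 without oxidized C (adjusted p 0.0025, lowest of a range that ends at 0.596) and 0.33 without oxidized A and B. Zfp568, known as a repressor of a placental Igf2 transcript, was at 3.17, 10.3 and 12.8 FPKM against 12.9, 13.2 and 14.02 FPKM. Only oxidized A was far from the rest, and the log2 difference of -0.73 had an SE of 0.39. Zfp819 was at 2.09, 3.30 and 1.89 against 3.12, 5.04 and 4.98 FPKM (-0.65, adjusted p 0.175). Zfp445, which acts beside Zfp57 at imprinted loci, differed by -0.07, the proviral silencer Zfp809 by 0.07 and Zfp932 by 0.09. Zfp708 was below the limit at 0.501 FPKM.

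A list of 24 genes was drawn up for the Trim28 co-repressor pathway and silencing factors linked to it. All 24 were measured and none was called, but the list is a selection and not the whole pathway. The median log2 difference was -0.05, with 10 genes positive and 14 negative. Trim28 was at 88.1, 121 and 87.2 FPKM in the oxidized libraries and at 80.0, 66.0 and 78.9 in the reduced libraries. The groups did not overlap, but the log2 difference of 0.38 did not pass the test (SE 0.18, adjusted p 0.294). Setdb1 differed by 0.23 (adjusted p 0.512). The members with the smallest p were Mphosph8, a subunit of the HUSH silencing complex (-0.58, adjusted p 0.116), the histone methyltransferase Suv39h1 (0.57, adjusted p 0.146) and the histone chaperone Daxx (0.49, adjusted p 0.171).

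Of the genes with roles in stem cell and reprogramming transcription, 10 of 11 were measured and none was called, with a median of -0.08. Zfp217, which works in co-repressor complexes, was at 1.24, 2.07 and 4.81 FPKM in the oxidized libraries, against 5.29, 5.26 and 7.30 FPKM in reduced cells. Every oxidized library was below every reduced one, least so in population C, and the log2 difference was -1.01 (SE 0.32, adjusted p 0.154). Without oxidized C it was -1.39 with an adjusted p of 0.0060, the lowest of a range that ends at 0.717 without oxidized A and B. Zfp553 was at 16.3, 25.6 and 14.8 FPKM against 11.1, 10.9 and 12.2 FPKM (0.65, adjusted p 0.157). The Klf4 partner Zfp296 was at 10.7, 15.1 and 4.62 FPKM against 13.7, 9.76 and 11.4 FPKM, with no common direction over the populations. The other members, Zfp281, Zfp143, Zfp148, Zfp207, Zfp706, Zfp266 and Zfp462, had log2 differences between -0.18 and 0.15. Zfp982 was below the limit at 0.670 FPKM.

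Genes known from the development of tissues were measured in 7 of 11 cases and none was called. All 7 differences were positive, with a median of 0.49, where 59.3% of all tested genes were positive. Within the populations 4 of the 7 were positive in A and all 7 in B and in C. Zfp703 was at 2.53, 3.77 and 3.699 FPKM in the oxidized libraries, against 1.89, 0.956 and 2.58 FPKM in reduced cells (0.66, adjusted p 0.202). Zfp467 was at 4.30, 4.40 and 3.10 against 2.58, 1.74 and 2.47 FPKM (0.60, adjusted p 0.153). Zfp423, a Smad cofactor in brain and fat development, was at 9.32, 14.8 and 19.96 against 11.1, 6.87 and 11.9 FPKM (0.49, adjusted p 0.373). In Zfp467 the groups did not overlap, and in Zfp423 oxidized A lay among the reduced libraries. Zfp711, Zfp365, Zfp335 and Zfp521 differed by 0.57, 0.32, 0.27 and 0.10. The SE was larger than the difference in Zfp335 (0.28) and Zfp521 (0.17). The median of the 7 was 0.98 in population B, 0.29 in A and 0.39 in C, and their median coding GC content was 58.4%, a property that goes with the differences in population B as described below. Summed mesenchyme markers (Col1a1, Col3a1 and Fbln1) were at 51.2 to 65.5 FPKM in the oxidized and 17.6 to 29.0 FPKM in the reduced libraries, and their part in these values was not tested. Zfp503, Zfp750, Zfp536 and Zfp488 were below the limit at 0.998, 0.590, 0.0158 and 0.00307 FPKM.

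Genes acting on RNA and ribosomes were measured in 10 of 10 cases, with Zfp346 called and a median log2 difference of -0.33. Of the 10, 7 were negative and 3 positive. Zfp330, a nucleolar protein gene, was at 25.6, 21.6 and 27.4 FPKM in the oxidized libraries, against 35.1, 38.9 and 35.6 FPKM in reduced cells. The groups did not overlap, and the log2 difference was -0.54 (SE 0.15, adjusted p 0.129). Zfp106, an RNA-binding protein, was at 11.5, 14.2 and 14.6 against 18.5, 19.8 and 16.3 FPKM (-0.41, adjusted p 0.212). Zfp638 differed by -0.40, Zfp598, a ubiquitin ligase of collided ribosomes, by -0.34, Zfp36 by -0.33 and Zfp622, a factor of large ribosomal subunit maturation, by -0.28. On the positive side were the splicing factor Zfp326 at 3.81, 4.59 and 4.88 against 2.38, 2.77 and 3.51 FPKM (0.49, adjusted p 0.190), Zfp830 (0.14) and Zfp593 (0.11). The 8 genes of chromatin complexes, ubiquitin and SUMO (Zfp592, Zfp687, Zfp532, Zfp451, Zfp91, Zfp277, Zfp131 and Zfp64) had a median of 0.02, ranged from -0.29 (Zfp687) to 0.31 (Zfp592), and held no call.

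**Figure D2:**
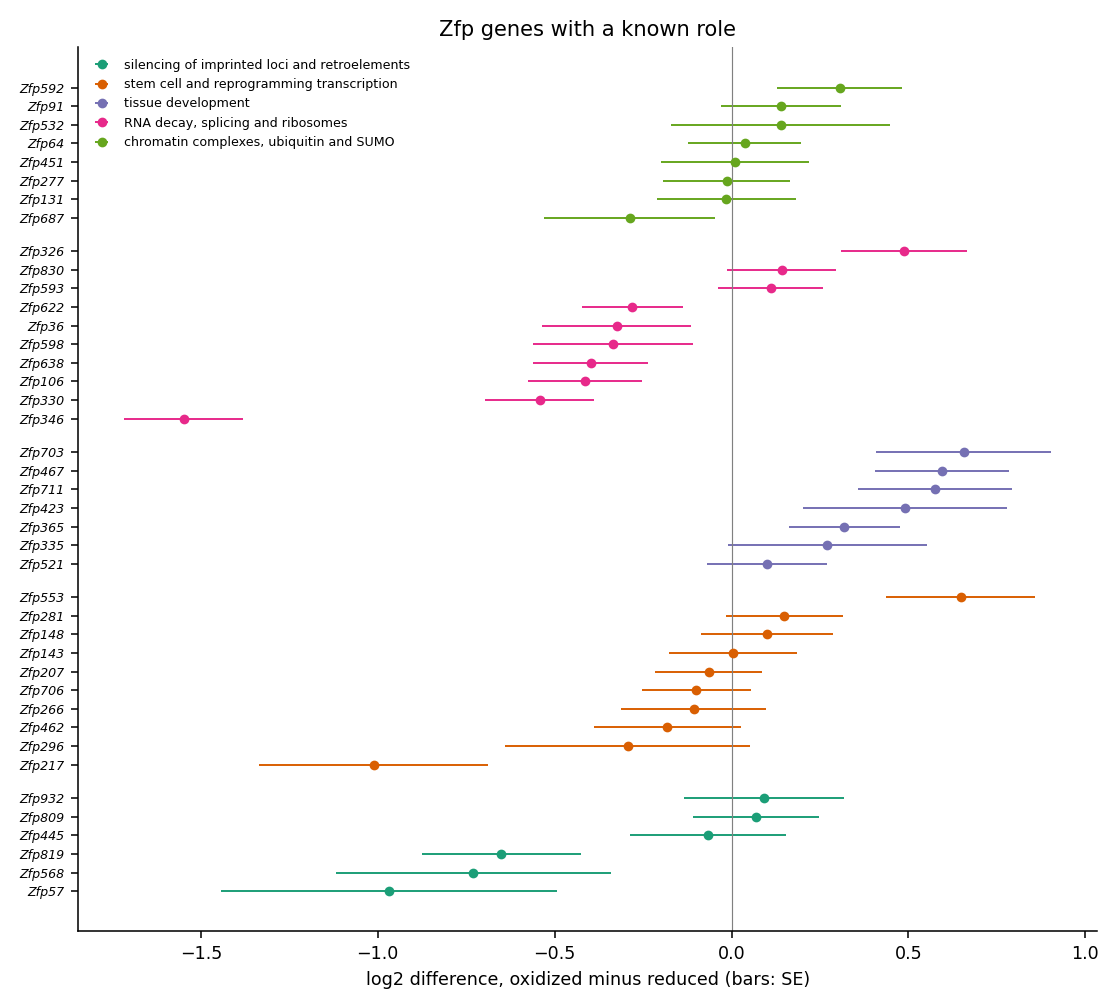
Log2 difference, oxidized minus reduced (horizontal axis, bars for the SE from limma), of the 41 measured Zfp genes with a listed role, coloured by role and sorted within it. The 7 tissue development genes (violet) all lie above 0, 7 of the 10 RNA genes (pink) lie below it, and Zfp346 at -1.55 is the only gene shown that passed the test.

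Among groups of neighbouring genes, 11 Zfp genes of distal chromosome 4 were all lower in the oxidized mean. They lie in 2 runs at chr4:145510759-147809788 (mm10), separated by 835 kb. In order they are Zfp990, Zfp980, Zfp986, Zfp987 and Zfp992, then Zfp988, Zfp978, Zfp985, Zfp979, Zfp534 and Zfp984. The region was chosen after the values were seen, and 3 of its genes, Zfp985, Zfp986 and Zfp987, averaged 1 FPKM or more in the reduced libraries only. The other 8 had a median log2 difference of -0.58, all negative. None of the 11 was called, and their median log2 difference was -0.59. An unadjusted p under 0.05 in limma was seen in 4, against 5.93% of all tested genes in the lower direction. Zfp985 was at 0.138, 0.753 and 0.0333 FPKM in the oxidized libraries, against 2.03, 2.59 and 1.09 FPKM in reduced cells (-1.15, adjusted p 0.0921). Zfp979 was at 5.08, 4.24 and 3.14 against 8.60, 14.3 and 6.62 FPKM (-1.03, adjusted p 0.113). Zfp978 was at 0.886, 1.26 and 1.83 against 3.22, 4.62 and 2.71 FPKM (-0.96, adjusted p 0.0916). In these 3 and in Zfp987 the groups did not overlap, while in the other 7 genes, such as Zfp990 at 5.85, 4.80 and 3.04 against 7.37, 13.6 and 5.75 FPKM, they did. Over all tested genes, 8.81% lay apart in that direction. Zfp985 and Zfp987 were kept through the reduced libraries alone, so their separation is no independent support.

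The size of the difference depended on the population. The 11 genes summed to 27.8, 25.4 and 17.2 FPKM in oxidized cells and to 37.5, 64.5 and 29.4 FPKM in the reduced libraries. Reduced B was by far the highest, and the reduced library was above the oxidized one in each population. The median log2 difference was -1.03 in B, with all 11 negative, -0.56 in C, with 10 negative, and -0.19 in A, with 7 negative. Without reduced B it was -0.42, with 10 of 11 negative. Without oxidized C it was -0.29, with all 11 negative and 1 gene, Zfp978, called, where 9.72% of all tested genes were called. Without oxidized A and B together the median was -1.02. Of the 7 further Zfp genes of the same region that were below 1 FPKM, 6 had a lower mean in the oxidized than in the reduced libraries. Other genes share 11.9% to 86.8% of the 50-base stretches of those 6. Zfp933, which went the other way, shares 1.05%. The 11 genes share sequence too, with 15.9% to 89.0% of each transcript's 50-base stretches found in other genes and 7 of the 11 at 50% or more. Reads may therefore have been divided among genes of the region, and neither the 11 values nor those of the 7 further genes are independent.

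**Figure D3:**
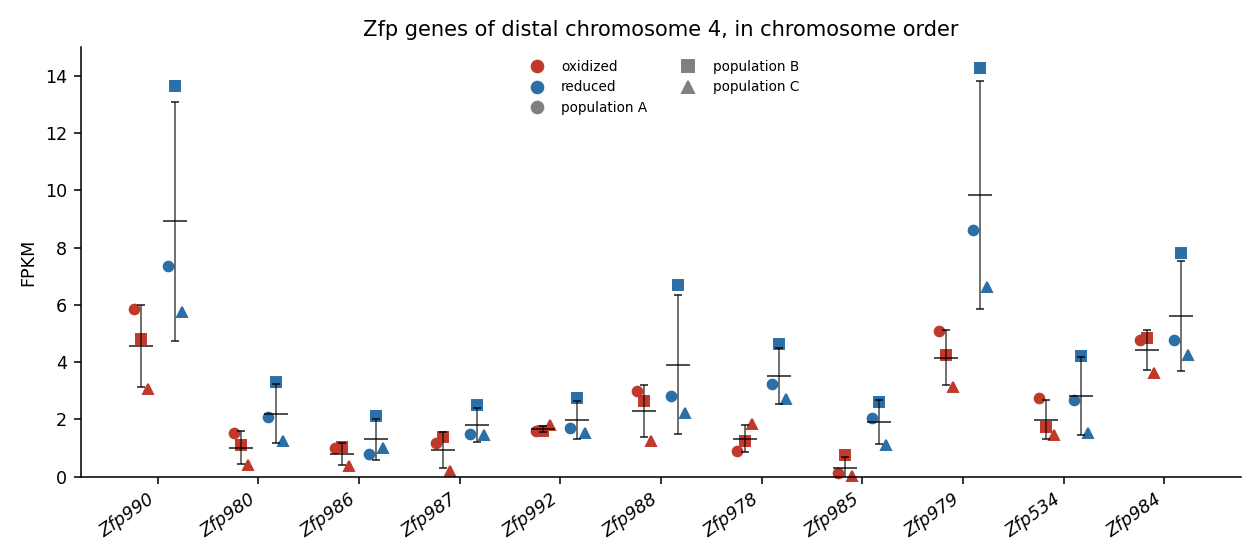
FPKM (vertical axis) in each library of the 11 Zfp genes of distal chromosome 4 in chromosome order, in oxidized (red) and reduced (blue) cells of populations A (circles), B (squares) and C (triangles), with bars for the mean ± SD of 3 libraries. The blue square, reduced B, is the highest point in all 11 genes, and in Zfp978, Zfp985, Zfp979 and Zfp987 all red points are below all blue ones.

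The likeness of these genes reaches their promoters. RefSeq gives a promoter for 7 of the 11, and all 7 hold the letters TATTGGGCG on one strand or the other. With both strands searched, 34 of 27025 genes (0.126%) hold them. These letters were used to align the windows below, and no outside source is given for them. Their presence in all 7 is therefore no independent support of likeness. The 21 pairs of these 7 promoters were 77.1% to 97.3% identical over aligned stretches of 208 to 300 bases. The promoter of Zfp984 was the least alike, at 77.1% to 81.5% identity to the other 6, and it is not shown. Pairs among those 6 were at least 84.7% identical. Windows of 69 bases that start at those letters are shown for these 6 genes, with capitals where a gene departs from the most common base.
Zfp980: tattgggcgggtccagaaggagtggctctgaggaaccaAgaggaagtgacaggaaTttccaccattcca
Zfp987: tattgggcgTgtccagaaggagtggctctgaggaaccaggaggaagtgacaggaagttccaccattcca
Zfp988: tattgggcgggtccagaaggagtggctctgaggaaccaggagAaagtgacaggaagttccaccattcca
Zfp985: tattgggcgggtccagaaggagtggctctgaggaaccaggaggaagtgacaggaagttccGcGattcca
Zfp979: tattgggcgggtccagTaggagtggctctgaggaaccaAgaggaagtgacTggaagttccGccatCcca
Zfp534: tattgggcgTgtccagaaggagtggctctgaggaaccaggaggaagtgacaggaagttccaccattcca
They lie at chr4:145670623-145670691, chr4:146097228-146097296, chr4:147305557-147305625, chr4:147553208-147553276, chr4:147642514-147642582 and chr4:147702602-147702670. The windows of Zfp987 and Zfp534 are identical, and their log2 differences were -0.59 and -0.31. The window of Zfp979 departs at 5 bases, more than any other shown, and its difference was -1.03. Those of Zfp985 and Zfp980 depart at 2 bases each, with differences of -1.15 and -0.66. A link between window and difference was not tested.

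Most other runs of neighbours held differences of both signs. With neighbours joined when at most 500 kb apart, 125 Zfp genes fell in 20 runs of at least 4. All differences were negative in 3 runs, 2 of them on distal chromosome 4, and all were positive in 1. The third negative run was Zfp60, Zfp59, Zfp850 and Zfp36 on chromosome 7, with a median of -0.30 and medians of -0.15, -0.31 and -0.26 in A, B and C. The positive run was Zfp628, Zfp579, Zfp524 and Zfp580, at the start of chromosome 7, with a median of 0.51. The run that holds the called gene Zfp936 had 3 positive and 5 negative differences and a median of -0.18. The largest run, 13 genes of chromosome 17 from Zfp160 to Zfp946, had 4 positive and 9 negative differences and a median of -0.10.

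Over all members, the median log2 difference of 0.03 was near that of all tested genes, 0.08, and 148 of 269 (55.0%) were positive, against 59.3% of all genes. The populations did not move together. The Zfp median was 0.01 in A, -0.02 in B and 0.12 in C, with 137, 130 and 172 genes positive, while the median of all genes was 0.09, 0.14 and 0.00. Positive in C and negative in A and B were 36 Zfp genes (13.4%, against 7.41% of all genes), and the opposite pattern was seen in 16 (5.95%, against 15.5%). Oxidized A and B both lay above the other 4 libraries in 32 Zfp genes (11.9%, against 22.0% of all) and below them in 28 (10.4%, against 8.27%).

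The median difference was lower in Zfp genes with many linkers than in those with none. It was 0.14 on the log2 scale for the 69 Zfp genes with no linker, 0.06 for 47 with 1 to 2, 0.07 for 54 with 3 to 5, -0.01 for 65 with 6 to 9 and -0.10 for 31 with 10 or more. The median was 0.02 for the 116 genes with the KRAB label and 0.07 for the other 153. The label is incomplete, so this contrast cannot be ranked against that of the linker classes. The step across linker classes was largest in population B, where the medians ran from 0.30 with no linker to -0.21 with 10 or more. In A they were 0.01 and -0.07, and in C 0.12 and 0.08. The order rested on single libraries, since without oxidized B the medians were 0.07 with no linker and 0.03 with 10 or more, and without reduced B they were 0.11 and 0.00. Tested genes without a Zfp name that hold at least 3 linkers (66 genes) had a median of -0.12, and 2 of them were called, both lower. These were Gm14418 (-1.29, adjusted p 0.0330) and Gm6871 (-0.99, adjusted p 0.0400). The 28 Zbtb genes had a median of -0.01, the 7 Zkscan genes 0.26 and the 7 Zscan genes other than Zscan4 0.05, with none called.

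**Figure D4:**
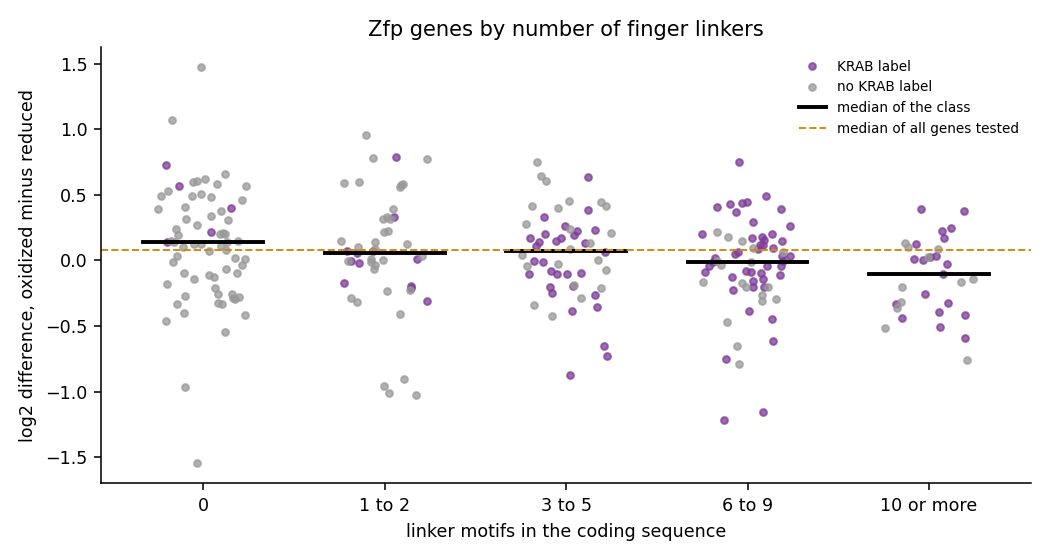
Log2 difference, oxidized minus reduced (vertical axis), of 266 Zfp genes by the number of linker motifs in the coding sequence (horizontal axis), with KRAB-labelled genes in purple, the others in grey, class medians as black bars and the median of all genes tested as a dashed line. Medians run from 0.14 with no linker to -0.10 with 10 or more, while the points of every class spread over both signs.

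The base composition of the coding sequence moved with these values. The median coding GC content was 56.7% in Zfp genes with no linker and 40.0% in those with 10 or more. With all tested genes split into 5 equal classes by coding GC content, the median difference ran from -0.07 in the lowest class to 0.19 in the highest, and 130 of 266 Zfp genes fell in the lowest class. Whether base composition has a part in the Zfp values was not tested beyond these counts. In population B the medians of all genes ran from -0.26 to 0.47, while they were 0.08 and 0.06 in A and -0.04 and 0.02 in C. The Zfp genes followed the same course, with medians of -0.06, 0.02, 0.20, 0.13 and 0.22 from the lowest to the highest class. Within the lowest class the medians of the 5 linker classes were -0.12, -0.01, -0.03, -0.04 and -0.17, with no steady order. The 53 Zfp genes with at least 10% shared stretches, a group that includes the distal chromosome 4 genes, had a median of -0.22 and a median GC content of 38.2%, against 0.09 for the other 216. Their medians in A, B and C were -0.05, -0.50 and -0.06.

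**Figure D5:**
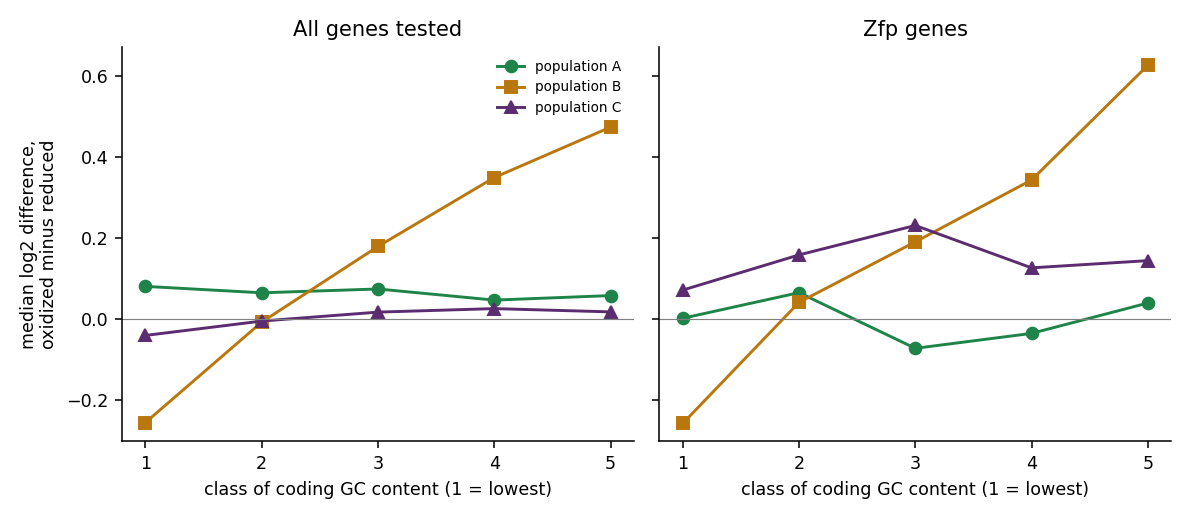
Median log2 difference, oxidized minus reduced (vertical axis), by class of coding GC content (horizontal axis, 5 equal classes of the tested genes, 1 is the lowest), for all genes tested (left) and the Zfp genes (right) in populations A, B and C. The line of population B climbs from -0.26 to 0.47 for all genes and from -0.26 to 0.63 for the Zfp genes, while those of A and C reach 0.23 at most.

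Several features of the libraries touch these values. Oxidized A and B stood apart from the other 4 libraries in transcripts that are not Zfp genes. The mitochondrial transcript mt-Co3 had 2710 FPKM in oxidized A and 1525 in oxidized B, against 112 to 199 elsewhere. Mif had 2496 and 2512 FPKM in oxidized A and B, against 803 to 1297 elsewhere. The highest entry named CT010467 went the other way, with 1410 and 1736 against 34116 to 43825 FPKM. The part of these transcripts in the Zfp results was not tested. The blood markers Hba-x, Hbb-bh1 and Gata1 summed to 588 and 596 FPKM in the libraries of population C and to 27.5 to 76.3 in the others. The pluripotency markers Pou5f1, Sox2 and Nanog summed to 124 to 261 FPKM in the oxidized and 237 to 292 in the reduced libraries, and the streak and mesoderm markers T, Mixl1 and Hand1 to 132 to 199 against 85.0 to 120. Sums also lay apart for visceral endoderm (Ttr, Afp and Apoa1), at 3.76 to 6.09 FPKM in oxidized and 1.44 to 2.28 in reduced cells. For definitive endoderm (Sox17 and Foxa2) they were 3.30 to 5.20 against 1.20 to 2.08. For neuroectoderm (Pax6, Sox1 and Nes) they were 3.33 to 7.999 against 2.40 to 2.54. Only 2 of the 3 visceral endoderm and 1 of the 3 neuroectoderm markers averaged 1 FPKM or more. Afp alone overlapped, at 0.235, 0.698 and 0.0473 FPKM in the oxidized and 0.479, 0.100 and 0 in the reduced libraries. Pax6 alone did too, at 0.272, 0.449 and 0.0815 against 0.185, 0.187 and 0.175 FPKM. Endothelium markers (Pecam1 and Cdh5) were at 4.21 to 4.43 against 5.47 to 7.01 FPKM, and the trophectoderm pair Cdx2 and Elf5 summed to 14.7 to 29.1 FPKM over all libraries, with Elf5 at or near 0. The part of these markers in the Zfp results was not tested. Relative to reduced A, the deepest, depth estimated from the steps of low values was 66.1% and 70.1% in oxidized and reduced C and 85.0% to 94.8% in oxidized A, oxidized B and reduced B.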

How the data were processed

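The authors deposited 1 table with FPKM values per gene and library, and beside them, per the file headers, their own fold, its log2 value, and a p-value and q-value for oxidized against reduced libraries. Tools named in the submitters' processing notes, without versions, were HISAT2, StringTie, edgeR, cutadapt and FastQC, with the build mm10. The counting of fragments that match several genes, and any use of strand, are not given in the sources used here. Genes with shared or antisense sequence are therefore uncertain. FPKM are not counts, and reads could not be recovered from them (40.1% to 44.4% of low values lay within 2% of whole steps), so no count test was made and depth is given only relative to the deepest library.

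From the FPKM values, log2(FPKM + 1) was fitted with limma 3.58.1 in R 4.3.3 (group only, eBayes with a trend, two-sided), over the 12191 genes that averaged 1 FPKM or more. The log2 scale with a pseudocount of 1 understates the change of low genes. The members and lists were chosen with earlier results of these data known, so lists are described by counts and medians with no test of their own. Named genes were those called, the 12 smallest p, the 10 highest means, the 6 largest differences in each direction at 5 FPKM or more, the measured genes of the role lists, those nearest the limit and, of the Trim28 pathway, Trim28, Setdb1 and the 3 smallest p. Genes of distal chromosome 4, the genes shown for their promoter and genes listed by run were named after their values were seen.

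Population letters pair the libraries through the series' design text. Deviations from the group means correlated at r = -0.06 (A), 0.07 (B) and 0.20 (C) within a letter and at -0.17 to 0.13 across letters.

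Locations, overlaps, coding sequences and shared 50-base stretches come from GENCODE vM21 (mm10), promoters from RefSeq. The KRAB label is the KEGG orthology entry in the authors' table. Analyses were run in Python 3.11.15 with pandas 2.3.3 and Biopython 1.88, and the limma fit was tested on simulated data. Alternatives were the population as a block, median-ratio and quantile scaling, a pseudocount of 0.1, a minimum mean of 5 FPKM, no filter, no trend, a difference of at least 1 on the log2 scale, leaving out each library, and leaving out oxidized A and B together.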

Additional observations from a re-analysis of the deposited data

How the results depend on the processing

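The count of genes called depended on the libraries used. With the replicate block (population letter) 4 genes were called in all and 0 Zfp genes. Without oxidized A and B together the counts were again 4 and 0, and with no filter 1 and 0. Leaving out single libraries gave 3 to 1185 genes called, highest without oxidized C, and 0 to 16 Zfp genes. A minimum mean of 5 FPKM left 1 Zfp gene called, Zfp362, since Zfp346 and Zfp936 lie under it, and 3 genes of distal chromosome 4, all 3 negative. Median-ratio and quantile scaling moved the median of the Zfp genes to -0.0395 and -0.0514, while that of all genes moved by a like amount to 0.00 and -0.01, and they changed the split of all called genes from 63 higher and 34 lower to 58 and 50 and to 54 and 51. Zfp346, Zfp362 and Zfp936 were called under both scalings. Without oxidized A and B together the log2 difference of Zfp57 was 0.33, of Zfp687 0.22 and of Setdb1 -0.018, each with the opposite sign. The causes of these changes were not tested. The replicate block changed no other call of a named gene. No count with a looser protein pattern for KRAB was run, since no protein table was used here. The other alternatives (pseudocount 0.1, no trend, a difference of at least 1) left 2 to 3 Zfp genes called. Depth is known only relative to the deepest library, and it was lowest in population C.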

Other observations

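Some Zfp genes separated oxidized A and B from everything else, and they are given here as values chosen after they were seen. Zfp62, a gene with 10 linkers and no shared stretches, had 0.902 and 1.71 FPKM in oxidized A and B but 5.09 in oxidized C, where the reduced libraries held 3.92, 4.54 and 4.60. Its log2 difference was -1.37 in A, -1.03 in B and 0.12 in C. The KRAB gene Zfp26 followed the same course, at 0.733, 0.675 and 1.84 FPKM in oxidized cells and at 1.62, 2.28 and 1.75 in reduced cells. Both resemble Zfp57 in that oxidized C lay at or above the reduced libraries of its own population. None of the 3 was called over all 6 libraries.

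On chromosome 6, the KRAB genes Zfp282, Zfp212 and Zfp777 lie in a run of 7 genes with a median log2 difference of 0.40, of which 5 were positive. Zfp282 had 2.74, 4.53 and 3.10 FPKM in oxidized cells and 1.87, 1.33 and 1.79 in reduced cells, with groups that did not overlap and an adjusted p of 0.120 in limma. Zfp212 had 8.73, 11.9 and 6.77 against 5.09, 6.17 and 5.84 FPKM (adjusted p 0.190). A run of 9 genes on chromosome 7 that includes Zfp768, Zfp668 and Zfp553 had 8 positive differences and a median of 0.15. Zfp768 had 4.99, 7.56 and 6.14 against 2.45, 2.73 and 4.47 FPKM (adjusted p 0.128). In population B the medians of these runs were 0.84 and 0.53, in A 0.20 and 0.23, and in C 0.18 and 0.02.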
